A study of Mus musculus with 19 samples.

Results

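Transcripts of 9 genes for antimicrobial peptides and secreted defence proteins were followed in mouse skin tumours and normal skin. The genes were taken by name and matched through their Ensembl identifiers. They were the beta-defensins Defb1, Defb3, Defb4, Defb6 and Defb14, the cathelicidin Camp, the iron-binding proteins Lcn2 and Ltf, and the protease inhibitor Slpi. All 9 had a row in the table of 34807 genes, and all 9 passed the filter on low counts. Poly(A) RNA was sequenced from 15 squamous cell carcinomas and 4 samples of normal wild-type skin, 1 library each, from female mice of a C57BL/6J background. All tumours carried BRAFV600E, an activated form of the MAPK pathway kinase BRAF, switched on through a drug-inducible Cre recombinase in mice of 7 to 20 weeks. The labels list the same age range for the normal skin. The drug on the skin was tamoxifen in the Ivl model and its active form 4-hydroxytamoxifen in the other models. Whether the mice that gave normal skin received either drug is not stated in the study. Cre was under the Ivl promoter, active in keratinocytes committed to differentiation, in 6 tumours (Ivl:BRAFV600E). It was under the Krt5 promoter in 5 tumours (K5:BRAFV600E) and under the Krt14 promoter in 4 (K14:BRAFV600E), both active in basal keratinocytes. In the study, tumours of the basal models grew on the back at the treated area, and Ivl tumours arose later and on the back, paws, ears or lips. Origin, drug, site and latency therefore cannot be told apart here. The labels do not say whether libraries of 1 group came from separate animals, so p-values measure the spread between these libraries only.

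Beta-defensins are small cationic peptides, held in shape by disulphide bonds between their cysteines, that damage microbial membranes and attract immune cells. Keratinocytes make some of them at all times and others after wounding or infection, when cytokines such as IL-1, IL-17, IL-22 and IL-36 act through NF-kappaB, C/EBP factors and STAT3. Cathelicidin and lactoferrin are stored in neutrophil granules and also come from some epithelia. Lipocalin 2 binds bacterial siderophores and lactoferrin binds iron itself, and both keep iron from microbes. Slpi, the secretory leukocyte protease inhibitor, blocks neutrophil elastase and has antimicrobial activity of its own.

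The defensins are neighbours in the genome and close relatives in sequence. Defb14, Defb4, Defb6 and Defb3 lie in this order on the plus strand of chromosome 8, with 99003 bases from the start of Defb14 to the start of Defb3, and Defb1 lies further along the chromosome. Their coding sequences are shown because Defb6 differed in direction from its relatives Defb4 and Defb3. The exons are those of GENCODE M21 on GRCm38, 2 coding exons per gene, each position is the span from the first to the last coding base, and in-frame cysteine codons (TGT or TGC) are in capitals.
Defb14 (chr8:19194357-19195212): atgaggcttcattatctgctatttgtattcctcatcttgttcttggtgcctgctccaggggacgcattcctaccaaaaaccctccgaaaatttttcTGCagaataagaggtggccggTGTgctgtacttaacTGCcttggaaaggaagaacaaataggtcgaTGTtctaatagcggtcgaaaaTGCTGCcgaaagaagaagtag
Defb4 (chr8:19198733-19201310): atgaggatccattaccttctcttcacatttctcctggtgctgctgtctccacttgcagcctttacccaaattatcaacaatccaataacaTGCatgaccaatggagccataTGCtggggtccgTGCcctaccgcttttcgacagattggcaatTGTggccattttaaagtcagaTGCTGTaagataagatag
Defb6 (chr8:19225505-19228105): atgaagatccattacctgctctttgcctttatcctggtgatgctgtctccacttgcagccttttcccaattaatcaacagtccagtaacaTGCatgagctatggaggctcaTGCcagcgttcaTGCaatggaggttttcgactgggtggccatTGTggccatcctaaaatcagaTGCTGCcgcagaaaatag
Defb3 (chr8:19293373-19295221): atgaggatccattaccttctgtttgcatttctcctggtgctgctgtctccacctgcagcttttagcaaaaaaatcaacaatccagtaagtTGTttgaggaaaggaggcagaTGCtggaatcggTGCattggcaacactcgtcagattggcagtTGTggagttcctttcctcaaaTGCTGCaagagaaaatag
Defb1 (chr8:21776652-21794576): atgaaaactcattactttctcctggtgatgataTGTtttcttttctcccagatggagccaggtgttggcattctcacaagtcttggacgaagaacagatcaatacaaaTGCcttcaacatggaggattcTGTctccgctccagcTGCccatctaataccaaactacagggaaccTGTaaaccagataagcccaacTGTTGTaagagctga
Each of the first 4 held 6 cysteine codons and Defb1 held 7. Defb6 was 78.6% identical to Defb4 and 71.9% identical to Defb3 in a global alignment, and Defb4 was 76% identical to Defb3. Defb14 (50.5% to 60.1%) and Defb1 (48.4% to 54.8%) were further from the others. Exons of Defb4 share a run of 50 bases with Defb8, whose level was near 0 in all libraries, so reads of Defb4 could be assigned ambiguously there. None of the other members shared such a run with another gene.

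Total counts per library lay between 45715309 and 72609771. These totals exceed the read number that the study states. Levels are given as CPM, the count of a gene relative to the size of its library. In these libraries 3 counts correspond to less than 0.1 CPM, so levels of a few hundredths of a CPM rest on single counts. The counts are batch-adjusted values, so a single count need not be a single read. CPM values below are scaled by the trimmed mean of M values (TMM). The choice of scale matters for comparisons with skin. With library totals in place of TMM, the median log2 fold change of all 32031 genes tested moved from -0.46 to -1.13 for Ivl tumours and from -0.60 to -1.4 for K5/K14 tumours. The share of higher genes among those called then fell from 56.8% to 15.7% and from 37.4% to 13.6%, and with DESeq2 size factors it was 45.6% for Ivl tumours. No member that was called changed direction under these scalings. A further feature concerned Ivl tumours 1, 2 and 3 and K5 tumour 1, which the labels do not place together. The authors adjusted the counts for a sequencing batch, and for 94.8% of 15657 genes the mean of these 4 differed by under 0.1 log2 from that of the other 15, skin included. For Slpi the mean was 817 CPM by library total in the 4 libraries and 772 CPM in the other 15, although those 15 include 4 skin libraries with a mean of 3.75 CPM. The levels of members in these 4 libraries may therefore not be comparable with those in the other tumours. Results are therefore shown for all 19 libraries and for the other 15 alone (3 Ivl, 4 K5 and 4 K14 tumours and 4 skin). Keratinocyte transcripts were present in every library. The summed level of 5 basal keratinocyte genes was 10430 to 65930 CPM in tumours and 3683 to 7543 CPM in skin. In bulk RNA, a change in the number of cells of a type cannot be told apart from a change of transcript per cell.

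To ask which defence genes differ between tumours of either origin and normal skin, the counts were compared with the quasi-likelihood F test of edgeR. A gene was called at an adjusted p under 0.05 over all genes tested. In Ivl tumours 6 of the 9 members were higher than in skin, 0 were lower and 3 were not called, against 20.4% of all genes higher and 15.5% lower. In K5/K14 tumours 7 were higher, 1 was lower and 1 was not called, against 23.2% and 38.9% of all genes. The higher genes in both were Slpi, Defb14, Defb4, Defb3, Defb1 and Lcn2, and the lower gene in K5/K14 tumours was Defb6. Slpi, Defb14, Defb4 and Defb3 also stand in a gene list that the study drew from these same samples, so their direction is not independent evidence. The median log2 fold change of the members was 4.22 in Ivl and 4.05 in K5/K14 tumours, against -0.46 and -0.60 for all genes. The lower bounds given below for Defb3 and Defb4 lie above both medians and so cannot change them. Each median was the value of Ltf, a gene with few counts in most libraries. Ltf was not called in Ivl tumours, and in K5/K14 tumours its value fell to 1.07 without K14 tumour 1. The medians therefore rest on an uncertain value. Both comparisons share the skin libraries. Within the 15 libraries 6 members were higher and 1 was lower in Ivl tumours (22.2% and 32.7% of all genes), and 7 were higher and 1 lower in K5/K14 tumours (23.9% and 42.3% of all genes). All Ivl tumours lay above all skin libraries for 7 members (13.2% of all genes), and all K5/K14 tumours did for 5 (16.7% of all genes).

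**Figure D1:**
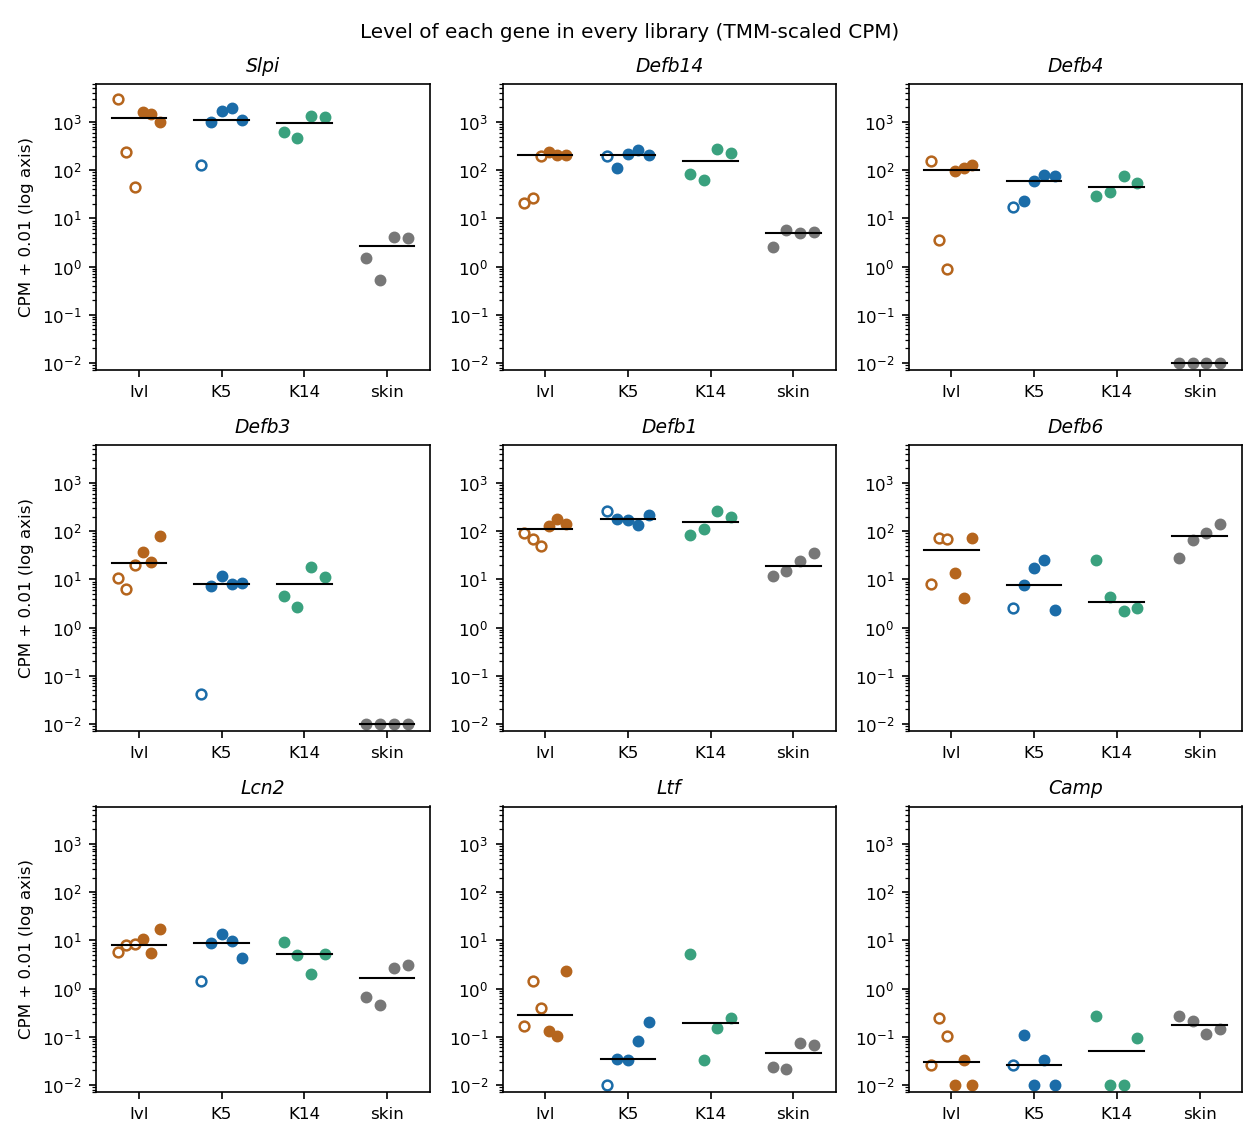
Level of each of the 9 genes in every library, as TMM-scaled CPM plus 0.01 on a log axis, for Ivl tumours (6), K5 tumours (5), K14 tumours (4) and normal skin (4). Points are libraries, bars are group medians, and open points are Ivl tumours 1 to 3 and K5 tumour 1. Slpi ranged from 45.8 to 2992 CPM in tumours and from 0.53 to 4.18 CPM in skin, and Defb6 and Camp had their highest group median in skin.

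Slpi showed the widest distance between tumours and skin among members that were detected in both. It held 1.5, 0.53, 4.18 and 3.83 CPM in the 4 skin libraries. In Ivl tumours it ranged from 45.8 CPM (tumour 3) through a median of 1236 CPM to 2992 CPM (tumour 1). Every tumour lay above every skin library, and the 3 lowest tumours (Ivl tumours 2 and 3 and K5 tumour 1) belonged to the set of 4. K5 tumours 1 to 5 held 127, 984, 1722, 1908 and 1116 CPM. K14 tumours 1 to 4 held 616, 470.0, 1344 and 1278 CPM. Outside the set of 4 the 11 tumours lay between 470.0 and 1908 CPM. Against skin, Ivl tumours differed by 8.93 ± 1.25 on the log2 scale (SE, edgeR adjusted p 3.3e-05) and K5/K14 tumours by 8.72 ± 1.23 (adjusted p 1.8e-05). Without the set of 4 these were 9.09 ± 0.75 (adjusted p 3.6e-07) and 8.87 ± 0.73 (adjusted p 1.8e-07). A single base of Slpi overlaps the microRNA gene Mir7678, and no other gene overlaps a member.

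The 250 bases before the RefSeq start of Slpi on GRCm38.p6, minus strand (chr2:164356508-164356757), are shown with matches to the C/EBP motif TTGCNNAA, on either strand, in capitals, because Slpi held the largest fitted change among members present in skin.
Slpi: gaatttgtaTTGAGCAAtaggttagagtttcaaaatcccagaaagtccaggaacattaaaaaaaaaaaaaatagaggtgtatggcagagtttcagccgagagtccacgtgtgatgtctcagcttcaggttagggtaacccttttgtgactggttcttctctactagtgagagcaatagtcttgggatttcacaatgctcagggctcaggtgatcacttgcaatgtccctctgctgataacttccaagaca
The window from 250 bases before to 50 after the start was searched on both strands for the motifs AP-1 (TGANTCA), STAT (TTCNNNGAA), C/EBP (TTGCNNAA), kappaB (GGANNNTCC) and TATAAA. The RefSeq table held a window for 6 members, namely Slpi, Lcn2, Defb3, Defb6, Camp and Ltf. The C/EBP letters occurred in 5 of these 6, all but Camp, against 10.8% of 32851 windows. The other letters occurred in 0 of the 6, against 7.81% (AP-1), 8.3% (STAT), 8.62% (kappaB) and 13.6% (TATAAA) of windows. The annotation holds a longer Slpi model that starts further upstream, so this window is that of the RefSeq start only. The hit in Slpi lay 241 bases before the start. Such a match is a run of letters and was not tested as a binding site.

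Defb14, an inducible defensin of keratinocytes, held 2.48, 5.8, 4.91 and 5.16 CPM in skin. Ivl tumours ranged from 20.8 CPM through a median of 202 CPM to 237 CPM. The low values were those of Ivl tumours 1 and 2 (20.8 and 26.3 CPM), both in the set of 4. K5 tumours held 194, 114, 221, 262 and 204 CPM, and K14 tumours held 83.5, 62.6, 274 and 225 CPM. All 15 tumours lay above all 4 skin libraries. Defb14 was higher by 5.02 ± 0.73 log2 units in Ivl tumours (SE, edgeR adjusted p 4.4e-05) and by 5.31 ± 0.73 in K5/K14 tumours (adjusted p 1.4e-05), and by 5.55 ± 0.51 and 5.30 ± 0.48 within the 15 libraries.

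Defb4 and Defb3, defensins known to be induced in epithelia by infection and inflammation, had 0 counts in each of the 4 skin libraries. Defb4 ranged in Ivl tumours from 0.87 CPM (tumour 3) through a median of 103 CPM to 152 CPM (tumour 1), and Ivl tumour 2 held 3.56 CPM. K5 tumours held 17.3, 22.5, 59.2, 81.3 and 76.8 CPM, and K14 tumours held 29.2, 36.0, 77.3 and 54.4 CPM. Thus all tumours held Defb4 and the lowest values were those of Ivl tumours 2 and 3 in the set of 4. Against 3 counts per skin library, its mean in Ivl tumours was at least 2491-fold higher (edgeR adjusted p 7.5e-05). The bound for K5/K14 tumours was at least 1544-fold (adjusted p 5.8e-05). Outside the set of 4 these bounds were at least 3382-fold and at least 1671-fold.

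Defb3 ranged in Ivl tumours from 6.37 CPM through a median of 21.6 CPM to 78.5 CPM in tumour 6. K5 tumours 1 to 5 held 0.032, 7.34, 11.7, 7.95 and 8.43 CPM, and K14 tumours held 4.50, 2.60, 17.8 and 11.3 CPM. K5 tumour 1 held 2 counts of Defb3, fewer than the 3 counts used as a floor, and stood apart from all other tumours. Against that floor the mean of Defb3 in Ivl tumours was at least 901-fold higher (edgeR adjusted p 6.2e-05). For K5/K14 tumours it was at least 244-fold (adjusted p 9.6e-05). Outside the set of 4 the bounds were at least 1421-fold and at least 274-fold.

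Defb1, a defensin made by many epithelia without induction, was already present in skin at 11.5, 15.1, 23.6 and 35.6 CPM. Ivl tumours ranged from 49.3 CPM through a median of 109 CPM to 175 CPM, with the 3 tumours of the set of 4 at the bottom. K5 tumours held 259, 180, 170, 131 and 220 CPM, and K14 tumours held 84.7, 113, 261 and 193 CPM. All tumours lay above all skin libraries. The rise was 2.34 ± 0.40 log2 units in Ivl tumours (SE, edgeR adjusted p 1.8e-04) and 3.06 ± 0.41 in K5/K14 tumours (adjusted p 8.2e-06). Leaving out the set of 4 it was 2.79 ± 0.39 and 2.98 ± 0.36.

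Defb6, a defensin known also from skeletal muscle and from the epithelium of mouth and airway, went the other way. Skin held 27.5, 66.6, 90.9 and 138 CPM. K5 tumours held 2.56, 7.6, 16.9, 25.6 and 2.33 CPM, and K14 tumours held 24.8, 4.26, 2.16 and 2.55 CPM, so all 9 lay below all skin libraries. Compared with skin, Defb6 differed in these 9 by -3.03 ± 0.79 log2 units over all libraries (SE, edgeR adjusted p 0.0037) and -2.91 ± 0.83 (adjusted p 0.0077) within the 15. Ivl tumours were divided. Tumours 2, 3 and 6 held 72.7, 68.1 and 72.6 CPM, inside the range of skin, and tumours 1, 4 and 5 held 7.96, 13.6 and 4.08 CPM. Their log2 fold change against skin was -1.02 ± 0.88 (adjusted p 0.35), and -1.42 ± 1.11 (adjusted p 0.28) within the 15 libraries.

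Skeletal muscle transcripts moved with Defb6 across the tumours, but followed another order in skin. The summed level of 5 skeletal muscle genes (Acta1, Ckm, Mylpf, Myh4 and Tnnt3) was 2065, 6026, 3472 and 2068 CPM in skin libraries 1 to 4. Defb6 was 27.5, 66.6, 90.9 and 138 CPM in the same libraries. The muscle sum was 3622, 1094 and 340 CPM in Ivl tumours 2, 3 and 6, where Defb6 was 68.1 to 72.7 CPM. It was 4.09 to 6.57 CPM in Ivl tumours 1, 4 and 5. Among K5/K14 tumours the sum was highest in K14 tumour 1 (325 CPM), K5 tumour 3 (135 CPM) and K5 tumour 4 (54.5 CPM), which were also the 3 with the most Defb6, and lay between 4.95 and 12.6 CPM in the other 6. Against skin, all 5 muscle genes were called lower in K5/K14 tumours and 0 of 5 in Ivl tumours (5 and 1 without the set of 4). Over the 11 tumours outside the set of 4, Spearman's rho of Defb6 with the muscle sum was 0.845. It was 0.818 with the summed markers of granulocyte progenitors, which reached at most 1.24 CPM in these tumours. These points share their scaling factor with the sums, and no p was computed. The part of muscle tissue in the Defb6 difference was not tested.

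**Figure D2:**
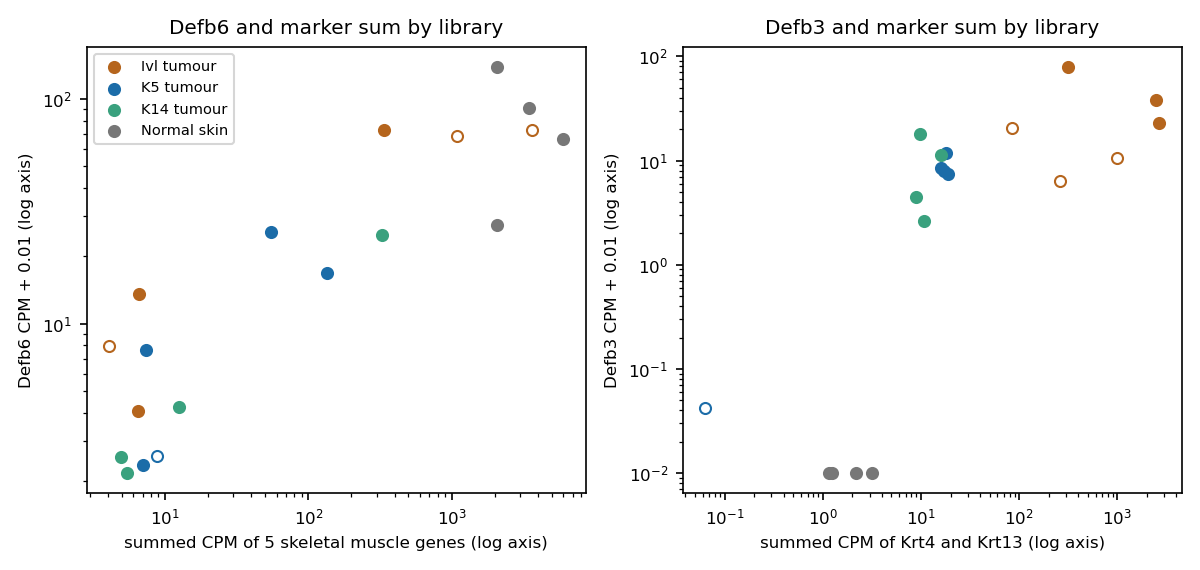
Left, Defb6 CPM plus 0.01 against the summed CPM of 5 skeletal muscle genes in every library, and right, Defb3 CPM plus 0.01 against the summed CPM of the mucosal keratins Krt4 and Krt13, all on log axes. Open points are Ivl tumours 1 to 3 and K5 tumour 1. Tumours with a muscle sum over 50 CPM held 16.9 to 72.7 CPM of Defb6 and the others 2.16 to 13.6 CPM, while Ivl tumours had the 6 highest keratin sums.

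Defb6 and Defb3 were alike upstream as well, although they differed in direction. Their 250 bases before the RefSeq start on GRCm38.p6 (plus strand, chr8:19225228-19225477 and chr8:19293111-19293360) were 74% identical in a global alignment. The other pairs among the 6 members with a window were 45.9% to 51.7% identical. C/EBP matches are in capitals, at 209 and 166 bases before the start in Defb6 and at 179 bases in Defb3.
Defb6: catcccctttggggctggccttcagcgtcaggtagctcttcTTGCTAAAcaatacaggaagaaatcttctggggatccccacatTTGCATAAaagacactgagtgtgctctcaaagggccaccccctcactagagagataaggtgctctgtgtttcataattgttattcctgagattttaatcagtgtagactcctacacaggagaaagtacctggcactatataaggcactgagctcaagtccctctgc
Defb3: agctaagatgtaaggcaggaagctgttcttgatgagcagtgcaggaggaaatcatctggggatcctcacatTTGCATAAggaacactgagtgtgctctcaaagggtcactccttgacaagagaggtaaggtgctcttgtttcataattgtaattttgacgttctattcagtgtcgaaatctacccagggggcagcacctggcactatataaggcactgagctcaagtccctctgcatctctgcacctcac

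**Figure D3:**
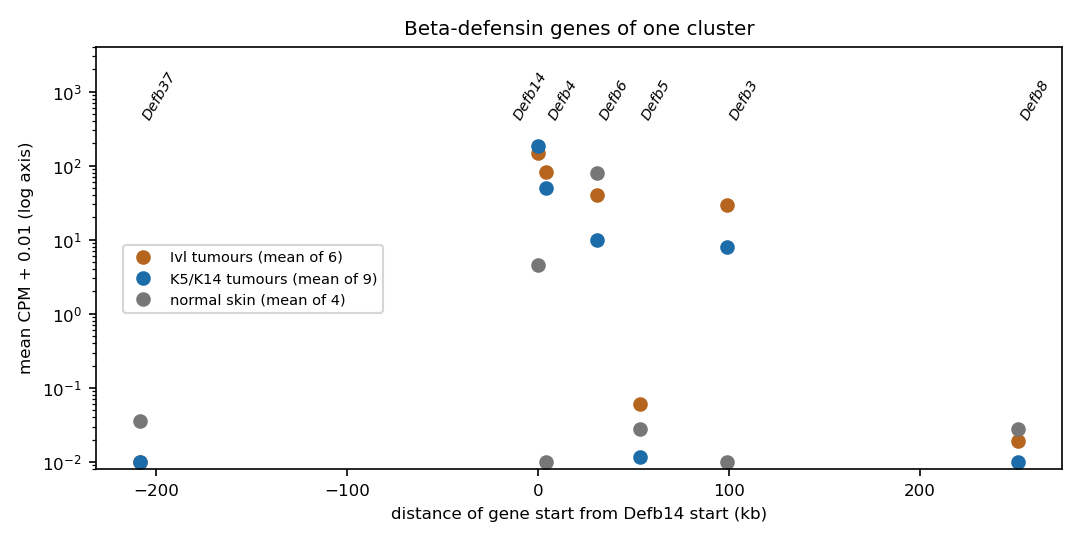
Mean CPM plus 0.01 on a log axis for the beta-defensin genes within 300 kb of the start of Defb14, against the distance of each gene start in kb, in Ivl tumours (6), K5/K14 tumours (9) and skin (4). Defb14, Defb4 and Defb3 were higher in tumours, Defb6, which lies between them, had its highest mean in skin, and Defb37, Defb5 and Defb8 were near 0 in all groups.

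The defensins present in these samples were few. Of 42 beta-defensin genes in the annotation 17 had a row, and the 12 besides the members were under 1 CPM in every library, with 0.48 CPM as their highest value. Levels per kilobase of exon allow members to be set side by side. In skin Defb6 was the highest member per kilobase in 4 of 4 libraries, with a median of 244 CPM per kb, and its range did not overlap that of Defb14 (median 24.7) or Defb1 (median 22.2). In tumours the highest member was Slpi in 8, Defb14 in 6 and Defb6 in 1 of 15 libraries. The tumour medians per kilobase were 998 for Defb14, 946 for Slpi, 161 for Defb1, 130.3 for Defb4, 38.8 for Defb3 and 24.6 for Defb6, and neighbours in this order overlapped. Lcn2 (3.07), Ltf (0.042) and Camp (0.021) followed. The annotated exons of Defb14 hold only its 204 coding bases, so its value per kilobase may be too high. Lengths merge the exons of all annotated models, 1180 bases for Slpi and 2623 for Lcn2, so their values may be too low.

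Lcn2, which binds siderophores, held 0.65, 0.45, 2.71 and 3.02 CPM in skin and more in most tumours. Ivl tumours ranged from 5.51 CPM through a median of 8.13 CPM to 17.4 CPM in tumour 6, all above skin. K5 tumours held 1.4, 8.84, 13.4, 9.47 and 4.28 CPM, and K14 tumours held 9.09, 5.07, 2.04 and 5.22 CPM. K5 tumour 1 and K14 tumour 3 lay within the range of skin. Lcn2 was higher by 2.43 ± 0.64 log2 units in Ivl tumours (SE, edgeR adjusted p 0.0063) and by 1.93 ± 0.60 in K5/K14 tumours (adjusted p 0.0099), and by 2.71 ± 0.68 and 2.07 ± 0.60 within the 15 libraries. With library totals in place of TMM the K5/K14 value was 1.18 and not called (adjusted p 0.067).

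Ltf, the iron-binding protein of milk, tears and neutrophil granules, was near the limit of detection except in a few tumours. Skin held 1, 1, 7 and 6 counts. K14 tumour 1 held 261 counts (5.25 CPM), Ivl tumour 6 held 122 counts (2.35 CPM) and Ivl tumour 2 held 85 counts (1.4 CPM). The other 12 tumours held 25 counts or fewer. The K5/K14 tumours were called higher than skin (4.05 ± 1.72, SE, edgeR adjusted p 0.048), but without K14 tumour 1 the value was 1.07 (adjusted p 0.36). The call was lost in 17 of the 28 other settings tried, at adjusted p up to 0.36. In Ivl tumours the value was 4.22 ± 1.78 and not called (adjusted p 0.069), or 4.40 ± 1.93 (adjusted p 0.066) within the 15 libraries, and without K14 tumour 1 in the shared fit it was 4.15 (adjusted p 0.0096). DESeq2 also called it (4.21, adjusted p 0.013). These 3 tumours were also 3 of the 6 tumours with the most muscle transcript.

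Camp, the cathelicidin, held 20, 18, 11 and 14 counts in skin (0.10 to 0.26 CPM) and at most 14 counts in any tumour. The tumours with most were K14 tumour 1 (13 counts) and Ivl tumour 2 (14 counts), and 6 of 15 tumours held none, which allows up to 3 counts each. Over all libraries Camp was not called in Ivl (-1.48 ± 1.08, edgeR adjusted p 0.26) or K5/K14 tumours (-1.66 ± 0.99, adjusted p 0.15). Within the 15 libraries it was called lower in Ivl tumours (adjusted p 0.031), where 3 tumours held 0, 1 and 0 counts, and skin was then at least 2.82-fold higher than 3 counts per library. Without K14 tumour 1 it was also called lower in K5/K14 tumours (-2.64, adjusted p 0.025).

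**Figure D4:**
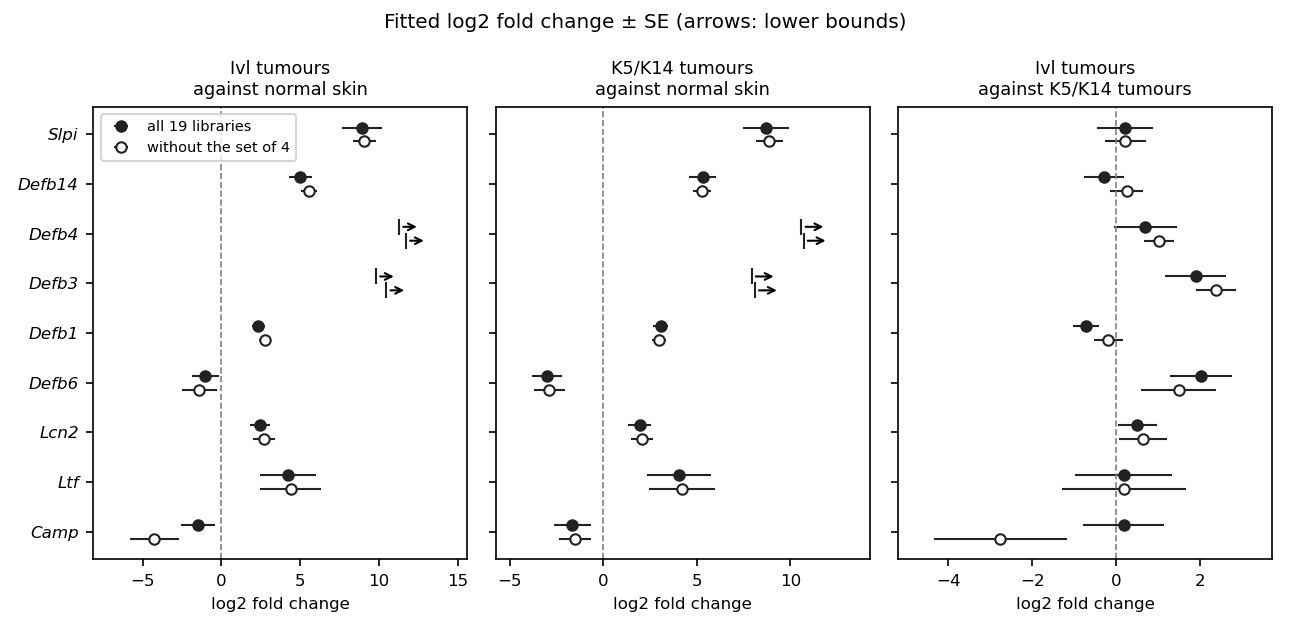
Fitted log2 fold change with its standard error for each gene in Ivl tumours against skin, K5/K14 tumours against skin and Ivl against K5/K14 tumours, over all 19 libraries (filled) and without Ivl tumours 1 to 3 and K5 tumour 1 (open). Arrows mark lower bounds for Defb3 and Defb4, which had 0 counts in skin. Values of Slpi lay between 8.72 and 9.09 against skin in all 4 fits, and in the direct comparison of the tumour groups 0 of 9 members were called.

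The tumour groups were then compared directly to ask which members differed between them. Origin, drug, site and latency differ together between these groups, so a difference cannot be assigned to the cell of origin. Over all libraries 0 of 9 members were called between Ivl and K5/K14 tumours with edgeR, against 2.36% of all genes. At an unadjusted p under 0.05 there were 3, against 21.1% of all genes, namely Defb6 (log2 fold change 2.02 ± 0.73, adjusted p 0.13), Defb3 (1.89 ± 0.73, adjusted p 0.16) and Defb1 (-0.72 ± 0.31, adjusted p 0.18). With DESeq2 Defb6 was called (2.01, adjusted p 0.039). Without the set of 4, 0 of 9 were called, against 0.41% of all genes. There the 3 Ivl tumours held 37.8, 22.9 and 78.5 CPM of Defb3 and all lay above the 8 K5/K14 tumours (2.60 to 17.8 CPM), with a log2 fold change of 2.37 ± 0.47 (adjusted p 0.064). The same 3 held 95.8, 110 and 125 CPM of Defb4, all above the 8 others (22.5 to 81.3 CPM), at 1.02 ± 0.35 (adjusted p 0.29). Thus 2 of 9 members did not overlap there, against 2.34% of all genes. The remaining members overlapped, with Slpi at 0.22 ± 0.50, Defb14 at 0.25 ± 0.39, Defb1 at -0.19 ± 0.34 and Lcn2 at 0.64 ± 0.57 on the log2 scale.

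Ivl tumours also differed in the mucosal keratins Krt13 and Krt4, which line the mouth and oesophagus. Their sum was 84.1 to 2674 CPM in Ivl tumours, 0.064 to 18.9 CPM in K5/K14 tumours and 1.16 to 3.2 CPM in skin. K5 tumour 1, with 2 counts of Defb3, had the lowest keratin sum of all 19 libraries. The fibroblast sum of 6 genes was 1464 to 10720 CPM in Ivl and 3756 to 14910 CPM in K5/K14 tumours. Over the 11 tumours outside the set of 4, Spearman's rho of the fibroblast sum was -0.94 with Defb3 and -0.87 with Defb4. It was -0.67 with Defb14 and -0.62 with Slpi. The keratin sum had a rho of 0.63 with Defb3 and 0.59 with Defb4, and the basal keratinocyte sum 0.582 and 0.545. In Ivl tumours 4, 5 and 6 the keratin sum was 2452, 2674 and 312 CPM. Defb3 ran in the opposite order there, at 37.8, 22.9 and 78.5 CPM. The fibroblast sum in Ivl tumours 4, 5 and 6 was 1464, 1715 and 2671 CPM. Defb4 rose in that same order, at 95.8, 110 and 125 CPM, against the direction of its rho. Among K5/K14 tumours, K14 tumour 3 had the lowest fibroblast sum (3756 CPM) and the most Defb3 (17.8 CPM). Each rho pools both tumour groups. The rho values describe libraries that share their scaling. The part of these sums in the Defb3 and Defb4 differences was not tested.

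Between K5 and K14 tumours 0 of 9 members were called with edgeR, both over all libraries (0% of all genes called) and within the 15 (0.0532% of all genes). With edgeR 1 member, Ltf, had an unadjusted p under 0.05 (p 0.0046, adjusted p 0.65), against 6.07% of all genes, and DESeq2 called it (-4.47, adjusted p 0.047), with K14 tumour 1 as the high library. Taken apart, K5 tumours showed 6 members higher and 1 lower than skin (22.2% and 33.5% of all genes), and K14 tumours 7 higher and 1 lower (20.6% and 25.9% of all genes). Slpi rose by 8.86 ± 1.28 in K5 and 8.52 ± 1.27 in K14 tumours on the log2 scale, and Defb14 by 5.44 ± 0.77 and 5.13 ± 0.77.

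Members varied together in pairs across tumours. Over the 11 tumours outside the set of 4, Spearman's rho was 0.90 for Defb6 and Lcn2, 0.84 for Defb3 and Defb4, and 0.82 for Defb14 and Slpi. It was -0.72 for Defb1 and Defb6 and between -0.54 and 0.56 for the other pairs of the 7 members at 1 CPM or more. These values describe 11 libraries that share their scaling. Among 14609 genes, those most alike Slpi in this measure were Calr, Phlda2 and Lrrc59 (rho 0.94 to 0.95), and those most alike Defb14 were Slco4a1, Ngef and Tuba1c (0.96 to 0.97). The genes most alike Defb3 were Dcun1d3, Topors and Pitx1 (0.95 to 0.97), and for Defb4 they were Tmbim1, Tspan12 and Klk12 (0.94 to 0.95). For Defb6 they were Atp12a, Calcb and Cxcl12 (0.97), for Defb1 4833439L19Rik, Riok3 and Klf6 (0.94 to 0.97), and for Lcn2 Zfp324, Atp1b1 and Cnpy4 (0.91 to 0.93).

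Genes around the members were read from fixed lists. The counts below stand beside 20.4% of all genes higher and 15.5% lower in Ivl tumours, and 23.2% and 38.9% in K5/K14 tumours. Within the 15 libraries these shares were 22.2% and 32.7%, and 23.9% and 42.3%. Of 25 other defence genes 23 were tested, of which 11 were higher and 4 lower in K5/K14 tumours and 8 higher and 1 lower in Ivl tumours. Leaving out the set of 4, there were 12 higher and 4 lower in K5/K14 tumours and 8 higher and 3 lower in Ivl tumours. Wfdc5, a relative of Slpi with a whey acidic protein domain, had the smallest adjusted p in K5/K14 tumours (log2 fold change 2.77, edgeR adjusted p 8.2e-06). It was followed by Pglyrp4 (2.08), which binds bacterial peptidoglycan, Saa1 (4.39), an acute phase protein, and Pglyrp3 (2.92), a relative of Pglyrp4. The median of the list was 2.08 in K5/K14 and 1.22 in Ivl tumours, or 1.91 and 0.97 with genes absent from a group set to their bounds. Without the set of 4 it was 2.05 in K5/K14 and only 0.29 in Ivl tumours, or 2.05 and 0.84 with bounds.

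Of 15 listed cytokines that induce defensins, 14 were tested, as Il22 had no row. Of the 14, 10 were higher in K5/K14 and 12 in Ivl tumours, and 0 were lower (10 and 13 higher without the set of 4). The 4 with the smallest adjusted p in K5/K14 tumours were Il1f9 (4.05), Il1a (4.21), Il1f8 (4.36) and Il24. Il1f9 and Il1f8 encode forms of IL-36. Il24 reached 52 CPM in a K5/K14 tumour and 0.0094 CPM in skin. Il17a and Il17f were called higher in Ivl tumours (edgeR adjusted p 0.033 for both) and not in K5/K14 tumours, and the direct comparison of the tumour groups did not call them (adjusted p 0.054 and 0.11). Their highest values were 1.5 and 0.92 CPM. Of 14 receptors 4 were higher and 4 lower in K5/K14 tumours and 3 higher and 1 lower in Ivl tumours. Without the set of 4 there were 4 higher and 5 lower, and 3 higher and 2 lower. Il17rc (1.64) and Il1rl2 (0.85), receptors for IL-17 and IL-36, were higher in K5/K14 tumours, and the flagellin receptor Tlr5 (-1.41) and the lipopolysaccharide receptor Tlr4 (-1.75) were lower. Of 11 signalling genes 5 were higher in each tumour group and 1 was lower in K5/K14 tumours, and without the set of 4 there were 6 higher and 1 lower in each. These included the transcription factors Cebpb (1.46), Rela (0.80) and Stat3 (0.85) and the NF-kappaB partner Bcl3 (2.44) in K5/K14 tumours.

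Of 10 genes for processing enzymes and receptors of these peptides, 2 were higher and 6 lower in K5/K14 and 2 higher and 1 lower in Ivl tumours. Without the set of 4 the count in Ivl tumours was 2 higher and 5 lower, close to the 2 and 6 of K5/K14 tumours. The proteases Klk5 (3.31) and Klk7 (3.73), which process cathelicidin in skin, were the higher ones in K5/K14 tumours, while Egfr (-0.56) and Elane, the elastase that Slpi inhibits, were lower. Elane reached 0.32 CPM in skin and 0.040 CPM in tumours, as transcript only, and elastase protein was not measured here. Neutrophil markers stood beside the members as follows. Of 9 markers 5 were higher in K5/K14 (6 without the set of 4) and 4 in Ivl tumours (4 without it), and their sum was 7.29 to 56.4 CPM in tumours and 0.98 to 14.6 CPM in skin. Cxcr2 (4.75 in K5/K14 tumours) held 4.04 to 36.1 CPM in tumours and up to 1.45 CPM in skin. Its median in K5/K14 tumours was 28.5 CPM, where the sum had a median of 40.4 CPM, so the sum rested largely on this gene. The listed markers Ly6g, Ngp and Itgb2l stayed at or under 1.07 CPM in every library, and Ly6g was called higher (edgeR adjusted p 0.005) at up to 0.28 CPM. Mmp8 (3.35) and Chil3 (2.96) were higher too. Markers of granulocyte progenitors summed to at most 6.96 CPM in skin and 3.37 CPM in tumours. The part of neutrophils in the level of any member was not tested.

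**Figure D5:**
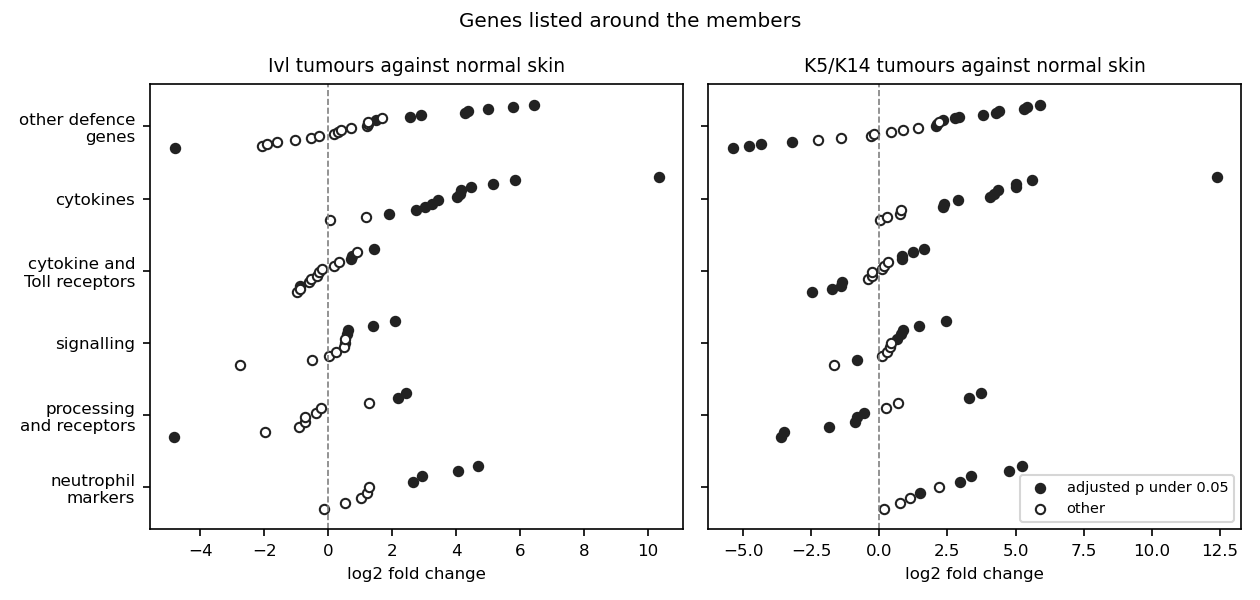
Log2 fold change against skin of each gene in 6 lists around the members, for Ivl tumours (left) and K5/K14 tumours (right), over all 19 libraries. Filled points had an edgeR adjusted p under 0.05. Among the cytokines 12 of 14 were called higher in Ivl and 10 of 14 in K5/K14 tumours, while receptors lay on both sides of 0. The cytokine farthest to the right is Il24, nearly absent from skin, whose fitted value is no measure of its fold.

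Other cell types were read in the same way. Suprabasal keratinocyte genes were higher in both groups (5 of 5), and basal keratinocyte genes in K5/K14 (5 of 5) and Ivl tumours (3 of 5). Of 6 macrophage genes 0 were called in either group with edgeR over all libraries, but within the 15 libraries 3 were lower in K5/K14 and 1 in Ivl tumours. Of 6 fibroblast genes 1 was lower in K5/K14 tumours in both settings, and 2 were lower in Ivl tumours within the 15 libraries. Of 5 adipocyte genes 2 were lower in K5/K14 tumours, or 3 within the 15, where 1 was higher and 1 lower in Ivl tumours. Of 7 gland genes 1 was higher in Ivl tumours, and 2 were higher and 3 lower in K5/K14 tumours. Within the 15 libraries 2 gland genes were also lower in Ivl tumours. The summed suprabasal level was 8972 to 53390 CPM in tumours and 2098 to 4883 CPM in skin, so a larger share of keratinocyte transcript stood beside the higher Slpi, Defb14, Defb4, Defb3 and Defb1. Its part in those differences was not tested.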

How the data were processed

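The deposited table held estimated counts per gene for 19 libraries, 15 of tumours and 4 of normal skin. The authors trimmed reads with TrimGalore, aligned them with HISAT2 2.1.0 to GRCm38, assigned them to genes with featureCounts (Subread 1.6.3) and adjusted the counts for a sequencing batch with ComBat-seq. Per the study there were 2 sequencing batches, of 4 and 15 libraries, the sizes of the set of 4 and the rest here, but the labels do not say which libraries formed each. Whether strand or read pairs were used in counting is not stated in the sources used here. The values were whole numbers and were not scaled for depth. The design had assumed plain counts and the same count test was kept.

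The filter kept 32031 of 34807 genes, those that reached 5 counts in some library. Counts were scaled with TMM and tested with edgeR 4.0.16 in R 4.3.3 (quasi-likelihood F test, robust, two-sided), with Benjamini-Hochberg adjustment over all genes. K5 and K14 tumours were merged as in the study, after a comparison of the 2. All groups shared 1 fit. Standard errors are the size of the fold change over the square root of F. For a gene with no more than 3 counts in any library of a group, folds are bounds against 3 counts per library, which cover counting error only. Because the counts are batch-adjusted, 3 counts need not be 3 reads. Alternatives were DESeq2 1.42.0, other scalings and filters, a term for the set of 4 libraries, a replicate block and fits without each library. The fits were checked on simulated counts. Of the 37 pairs of libraries within a group all differed by more than sampling noise (chi-square over its degrees of freedom at least 25.9).

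Gene positions came from GENCODE M21, to which 34694 gene identifiers matched and 113 did not, and promoter windows from RefSeq. The genes named are the 9 members, beta-defensins at 1 CPM or more, up to 4 genes per list with the smallest adjusted p in the comparison described and the 3 genes most alike each member. Other genes were named after their values were seen. Members, lists and the set of 4 libraries were chosen with earlier results of these data known.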

Additional observations from a re-analysis of the deposited data

Results flagged for a closer look

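Single libraries stood apart from their group by Dixon's criterion in 5 of the 34 combinations of gene and group in which a library held more than 3 counts, tested on the CPM and the log2 (CPM + 0.05) scale. Each combination was tested on both scales and chance gives about 1 in 20 for each test, so no excess over chance is claimed. Low libraries were K5 tumour 1 for Defb3 (0.032 CPM) and for Slpi (127 CPM), both on the log2 scale. High libraries on the CPM scale were K14 tumour 1 for Defb6 (24.8 CPM) and for Ltf (5.25 CPM), and K5 tumour 2 for Camp (0.10 CPM, 4 counts). K5 tumour 1 belongs to the set of 4 libraries whose mean lay near that of the other 15.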

How the results depend on the processing

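Of 1008 member values under alternatives, 966 kept direction and side of the threshold, 15 reversed, 18 lost the call and 9 gained it. Members called higher than skin numbered 6 to 7 in Ivl tumours and 5 to 7 in K5/K14 tumours. Within the 15 libraries 1 member (Camp) was lower in Ivl tumours in place of 0. In K5/K14 tumours 2 were lower with library totals, and 1 to 2 when each library was left out (2 without K14 tumour 1). Between Ivl and K5/K14 tumours 1 was higher with DESeq2, and 0 to 1 without each library (Ltf, 3.08, without K14 tumour 1). Between K5 and K14 tumours 1 was lower with DESeq2.

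The replicate block gave 6 higher and 0 lower members in Ivl tumours and 6 and 1 in K5/K14 tumours, Ltf being lost (2.43, adjusted p 0.23). The block reversed Defb4 between Ivl and K5/K14 tumours (-0.057) and between K5 and K14 tumours (-0.37). Of 25 pairs of libraries with the same number, 9 had a correlation over 0.1 (-0.39 to 0.51). Pairs with different numbers were not compared, so these values cannot show whether the numbers pair the samples.

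Other reversals concerned values that were not called. Between Ivl and K5/K14 tumours these were Defb14 (0.25) and Camp (-2.76) within the 15 libraries and Camp (-1.10) with the library set as a term. Leaving out each library moved Camp from -0.93 to 1.11, Ltf from -0.62 to 3.08 and Slpi from -0.27 to 0.46. Between K5 and K14 tumours it moved Defb3 from -0.66 to 0.21, Defb4 from -0.16 to 0.37 and Defb6 from -0.21 to 1.87.

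Over all genes, calls between Ivl tumours and skin went from 11515 to 18328 with library totals, 17566 within the 15 libraries and 7700 with the block. Between Ivl and K5/K14 tumours they went from 756 to 2133 with DESeq2, 131 within the 15 libraries, 449 with the set as a term 46 with the block and 127 to 1328 without each library. Between K5 and K14 tumours they went from 0 (1945 genes at an unadjusted p under 0.05) to 174 with DESeq2, 17 within the 15 libraries and 2 with those groups alone. The causes were not tested. Camp and Ltf rest on few counts in most libraries.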
